A study of Homo sapiens with 12 samples.

Results

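The D and E cyclins and the inhibitors of their kinases were followed in HLE cells, a human hepatocellular carcinoma line, after depletion of YAP and TAZ or of ATF4 and treatment with Sorafenib. The 10 genes were chosen by name from the 26258 genes of the expression table: the D cyclins CCND1, CCND2 and CCND3, the E cyclins CCNE1 and CCNE2, the CIP/KIP inhibitors CDKN1A (p21), CDKN1B (p27) and CDKN1C (p57), and the INK4 inhibitors CDKN2B (p15) and CDKN2C (p18). The genes were picked by name within these families, with no threshold on a measured value. Not every family gene was taken. The INK4 genes CDKN2A and CDKN2D were left out and are counted with the other G1 to S machinery below.

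D cyclins bind CDK4 and CDK6 in early G1 and carry growth signals to the retinoblastoma protein, whose phosphorylation releases E2F factors. E2F factors then raise the E cyclins, which activate CDK2 and start DNA replication. INK4 proteins bind CDK4 and CDK6 and keep D cyclins off them, whereas CIP/KIP proteins bind assembled cyclin and CDK complexes and mainly restrain CDK2. In liver cancer, loss of this brake through the retinoblastoma pathway is common, and CCND1 is a well known growth response gene.

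The cells received 1 of 3 siRNAs, a control (siCtrl), a combination directed at both YAP and TAZ (siY/T) or one directed at ATF4 (siATF4), and were then given DMSO, the solvent, or 5 µM Sorafenib (Srf), a multikinase inhibitor used against liver cancer. The dose is that of the labels, and the study's text gives a different one. The 6 groups are siCtrl DMSO, siY/T DMSO, siATF4 DMSO, siCtrl Srf, siY/T Srf and siATF4 Srf, with 2 libraries each and 12 in all. All groups share the 1 cell line and a transfection, so there are no untransfected cells. YAP and TAZ are transcriptional partners of TEAD factors at the end of the Hippo pathway, and ATF4 is the transcription factor of the amino acid and endoplasmic reticulum stress response.

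Libraries held 41408348 to 53619732 reads on genes, so that 1 read stood for 0.0186 to 0.0241 CPM (reads per 1000000 reads on genes). The siRNAs lowered their targets. In DMSO, YAP1 fell by 2.41 and WWTR1, which encodes TAZ, by 1.50 on the log2 scale with siY/T. ATF4 fell by 1.33 with siATF4 in DMSO, from a mean of 248 to 98.5 CPM. The ATF4 gap was wider in Sorafenib, with means of 488 CPM in siCtrl and 87.6 CPM in siATF4 cells. WWTR1 also fell by 0.70 with siATF4 in DMSO, and ATF4 also fell by 0.63 with siY/T in Sorafenib, from a mean of 488 to 315 CPM. The replicates of siY/T DMSO differed more than those of other groups, with a chi-square per gene of 20.7 against 2.98 to 8.30. Of 8 hepatocyte markers, 6 (ALB, AFP, APOA1, APOB, TTR and HNF4A) stayed at or under 0.117 CPM, while SERPINA1 lay between 0.0214 and 2.32 CPM, and FGB between 64.4 and 431 CPM. The 8 together summed to 64.6 to 72.3 CPM in siATF4 cells, 227 to 269 in siY/T cells and 174 to 431 in siCtrl cells, nearly all FGB. The 5 epithelial markers summed to 978 to 1339 CPM in siY/T cells and 2140 to 2792 in siATF4 cells against 3172 to 3333 in siCtrl cells, nearly all KRT8 and KRT18, while KRT19 stayed at or under 0.513 CPM. The 3 mesenchymal markers, nearly all VIM, lay between 1999 and 3001 CPM in the 12 libraries. The summed leukocyte markers lay between 61.3 and 75.0 CPM in siATF4 cells against 19.8 to 23.3 in siCtrl cells, nearly all of it CD68, while PTPRC stayed at or under 0.0379 CPM. The 3 summed fibroblast markers lay between 7.17 and 19.1 CPM in siATF4 cells and between 42.1 and 79.4 in siCtrl cells, nearly all PDGFRB, with DCN at or under 0.0468 CPM. The part of these markers in the results was not tested.

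Of the members, 8 exceeded 1 CPM in all 12 libraries and entered the test of 13515 genes. The other two, CCND2 and CDKN1C, did not reach 1 CPM in any library. CCND2 had 3 reads in all 12 libraries together and 0 reads in 10 of them, where 3 reads, the limit that a count of 0 allows, would be 0.0559 to 0.0724 CPM. Reads and their limits cover counting error only. CCND1 and CCND3 were the D cyclins with measurable mRNA.

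Levels were compared between genes only per kilobase of the main transcript. On that scale siCtrl DMSO cells held CCND1 at 73.0 ± 2.25 and CDKN2C at 70.0 ± 1.10 CPM per kb (SD, n = 2), far above CCND3 at 28.3 ± 0.751, CDKN1B at 15.9 ± 0.122, CCNE2 at 7.39 ± 0.568, CDKN1A at 7.27 ± 0.110, CCNE1 at 4.50 ± 0.419 and CDKN2B at 1.52 ± 0.159. Among these genes, the most abundant inhibitor mRNA in control cells was thus that of p18 and the most abundant cyclin mRNA that of cyclin D1. The plot of levels by library shows how each of the tested genes moved from there.

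**Figure D1:**
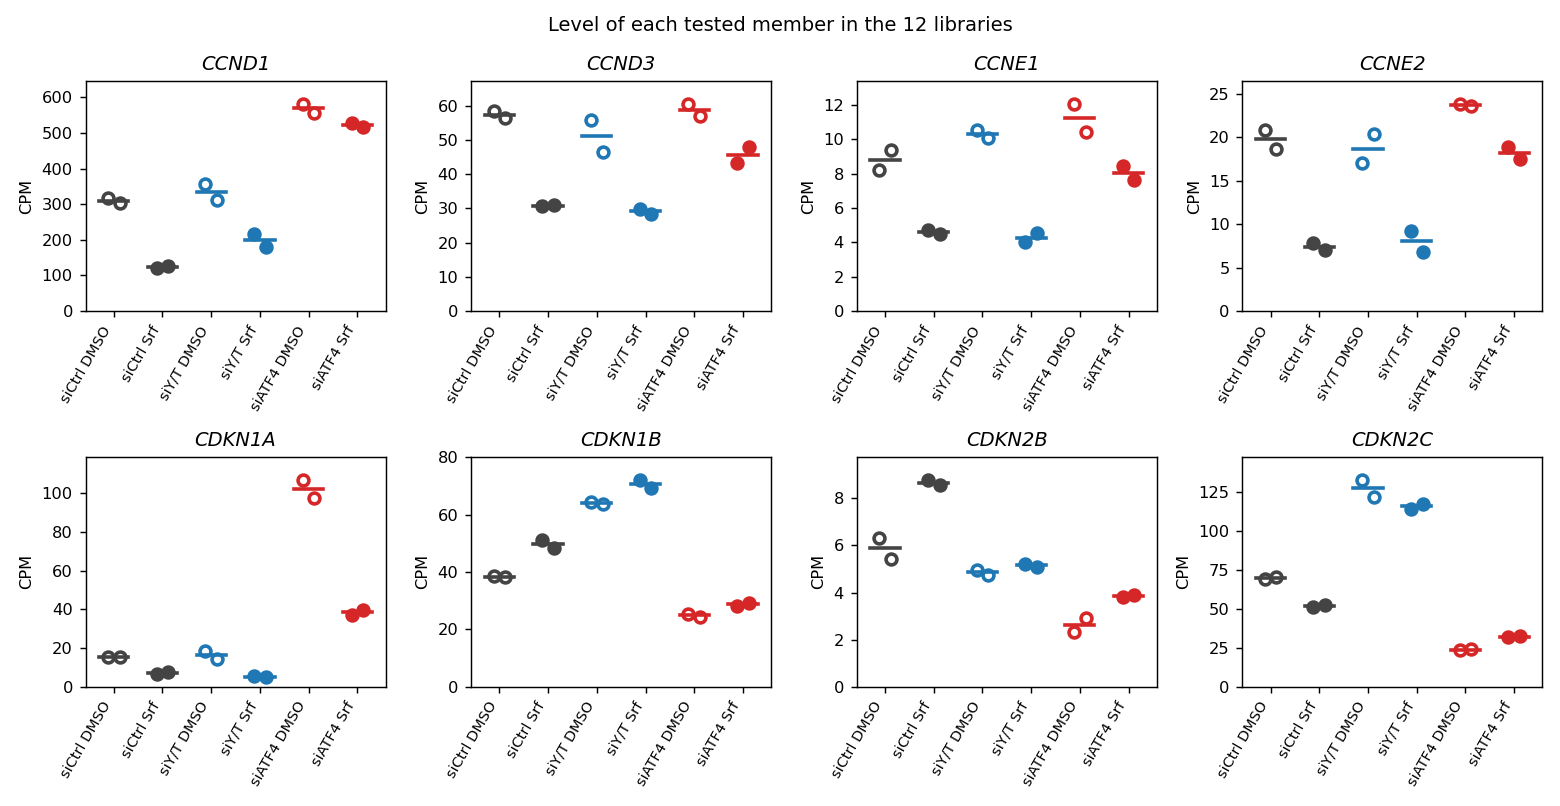
Level in CPM of the 8 tested genes, 1 panel a gene, with the 6 groups on the x axis; open points are DMSO libraries, filled points Sorafenib libraries, lines group means, and every y axis starts at 0. CCND1 and CDKN1A stood highest in both siATF4 groups, CDKN1B and CDKN2C stood highest in both siY/T groups and lowest in both siATF4 groups, and the E cyclins were lowest in siCtrl Srf and siY/T Srf cells.

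Changes were tested with limma on log2(CPM + 0.5) over all 13515 genes and called where the two-sided P, before adjustment, was under 0.05 and the log2 fold change was 0.58 or more in size, the fold limit. The adjusted p given is that of Benjamini and Hochberg over the same genes. Fold changes on this scale understate the change of low genes. The study describes its RNA samples as biological replicates, more of them than the libraries analysed here. The labels do not say that the 2 libraries of a group came from separate cultures, so p-values measure the spread between these samples only, which may be technical. In bulk RNA, a shift in the share of cells in a cell cycle phase and a change of the RNA in each cell cannot be told apart.

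The first question was which of these genes depend on YAP and TAZ in unstressed cells. In DMSO, siY/T left the cyclins near their control level and raised 2 inhibitors, CDKN2C and CDKN1B. That is 2 of 8 tested members higher and 0 lower, while 14.6% of all genes were called, 11.0% higher and 3.61% lower. Both inhibitors block the cell cycle in G1 through different kinases, p18 at CDK4 and CDK6 and p27 mainly at CDK2.

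CDKN2C measured 68.9 and 70.4 CPM in siCtrl DMSO, 133 and 122 in siY/T DMSO, 51.3 and 52.2 in siCtrl Srf and 114 and 117 in siY/T Srf. The 4 siY/T libraries lay above all others, with no overlap. The difference was 0.86 ± 0.05 on the log2 scale (SE), or 1.82-fold, in DMSO (limma adjusted p = 2.41e-08) and 1.16 ± 0.05, or 2.23-fold, in Sorafenib (adjusted p = 3.92e-09). When 1 library was left out, the DMSO difference of CDKN2C lay between 0.80 and 0.93 and that of CDKN1B between 0.72 and 0.74, the libraries of siY/T DMSO included.

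CDKN1B measured 38.6 and 38.2 CPM in siCtrl DMSO and 64.4 and 63.7 in siY/T DMSO. It rose by 0.73 ± 0.05 on the log2 scale (SE), 1.66-fold (limma adjusted p = 9.60e-08). In Sorafenib it measured 51.2 and 48.4 CPM in siCtrl and 72.2 and 69.5 in siY/T cells, again without overlap, but the difference of 0.50 was under the fold limit (adjusted p = 3.85e-06).

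CDKN2C lies on the plus strand of chromosome 1 between 51426417 and 51440306 of GRCh37, and CDKN1B on the plus strand of chromosome 12 between 12838432 and 12875303. The windows of 250 bases upstream of their starts, from the RefSeq promoter table of GRCh38.p14, are shown because YAP and TAZ reach DNA through TEAD factors, whose core letters are GGAATG, and ATF4 binds a composite element with the letters TGATGNAA. Both strands were searched. Capitals mark GGAATG or its reverse complement. Of the 3 annotated starts of CDKN2C, 2 held it, and CDKN1B did not, as follows.
CDKN2C, chr1:50968456-50968705, plus strand: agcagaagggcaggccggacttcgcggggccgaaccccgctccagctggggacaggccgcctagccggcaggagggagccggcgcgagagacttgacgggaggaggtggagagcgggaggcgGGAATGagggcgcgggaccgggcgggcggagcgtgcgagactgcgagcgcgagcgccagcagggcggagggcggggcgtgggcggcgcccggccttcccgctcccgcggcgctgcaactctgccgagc
CDKN2C, chr1:50969995-50970244, plus strand: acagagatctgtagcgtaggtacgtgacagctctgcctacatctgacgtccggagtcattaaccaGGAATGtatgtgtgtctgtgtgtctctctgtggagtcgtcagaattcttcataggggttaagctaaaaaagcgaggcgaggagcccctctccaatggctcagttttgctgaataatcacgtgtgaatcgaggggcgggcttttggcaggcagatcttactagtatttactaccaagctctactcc
CDKN1B, chr12:12717118-12717367, plus strand: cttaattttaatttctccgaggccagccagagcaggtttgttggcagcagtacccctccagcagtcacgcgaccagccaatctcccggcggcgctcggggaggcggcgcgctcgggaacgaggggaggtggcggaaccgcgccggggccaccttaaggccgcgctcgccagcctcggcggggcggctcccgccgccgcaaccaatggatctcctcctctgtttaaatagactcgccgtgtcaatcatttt

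Of the 6 members with a window in the table (CCND3, CCNE1, CDKN1A, CDKN1B, CDKN2B and CDKN2C), CCND3, CDKN2B and CDKN2C held GGAATG. Counted by window, 4 of the 10 windows of these 6 members did, and 11.9% of the 35116 windows of the table. TGATGNAA was in 0 of the 10 windows and in 3.14% of all windows. The E2F letters TTTNGCGC (1.51% of all windows) and the AP-1 letters TGANTCA (6.57%) were in none of them either. A match is a description of letters, and no match says only that they are not in this window. The windows of CCND1, CCND2, CCNE2 and CDKN1C were not analysed here.

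In Sorafenib, siY/T changed 3 of 8 tested members, 2 higher and 1 lower, while 9.95% of all genes were called, 6.11% higher and 3.84% lower. CDKN2C and CCND1 rose and CDKN2B fell. CCND1 measured 121 and 127 CPM in siCtrl Srf and 217 and 180 in siY/T Srf. It was higher by 0.67 ± 0.08 on the log2 scale (SE), 1.59-fold (limma adjusted p = 1.33e-05), but without replicate 1 of siY/T Srf the difference was 0.54 and under the fold limit.

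CDKN2B, which encodes p15 and is best known as a target of TGF-beta signalling, measured 8.79 and 8.55 CPM in siCtrl Srf and 5.22 and 5.10 in siY/T Srf. It fell by 0.70 on the log2 scale (SE 0.10, limma adjusted p = 0.000108). In DMSO the values were 6.30 and 5.44 CPM against 4.95 and 4.76, a difference of -0.25 (adjusted p = 0.0527). CDKN2B shares its locus with the antisense gene CDKN2B-AS1, which lay at 1.50 to 2.66 CPM in all libraries and differed by 0.23 with siY/T in Sorafenib (adjusted p = 0.152), and since the strand setting of the counting is not given in the sources used here, reads of the pair cannot be told apart with certainty.

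The second question was what ATF4 depletion does to the same genes. In DMSO, siATF4 changed 5 of 8 tested members, 2 higher and 3 lower, while 22.7% of all genes were called, 8.57% higher and 14.1% lower. CDKN1A and CCND1 rose, and CDKN2C, CDKN2B and CDKN1B fell. The 2 libraries of siATF4 DMSO lay outside the range of the siCtrl DMSO libraries for each of these 5 genes. They also did so for CCNE1 and CCNE2, which were not called, so separation does not set the called genes apart. The share of all genes that separated in this way was not counted.

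CDKN1A, which encodes p21, a CDK inhibitor that is induced by many stresses, measured 15.6 and 15.2 CPM in siCtrl DMSO, 107 and 97.6 in siATF4 DMSO, 6.81 and 7.59 in siCtrl Srf and 37.2 and 39.6 in siATF4 Srf. Both siATF4 groups stood above all other groups. The rise was 2.69 ± 0.10 on the log2 scale (SE), 6.47-fold, in DMSO (limma adjusted p = 1.75e-10) and 2.34 ± 0.10, 5.05-fold, in Sorafenib (adjusted p = 4.22e-10).

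CDKN1A lies on the plus strand of chromosome 6 between 36644237 and 36655114 of GRCh37. Its upstream window, shown because it is the member with the largest difference in any comparison with siCtrl, held none of the 4 motifs searched and reads as follows.
CDKN1A, chr6:36678464-36678713 of GRCh38.p14, plus strand: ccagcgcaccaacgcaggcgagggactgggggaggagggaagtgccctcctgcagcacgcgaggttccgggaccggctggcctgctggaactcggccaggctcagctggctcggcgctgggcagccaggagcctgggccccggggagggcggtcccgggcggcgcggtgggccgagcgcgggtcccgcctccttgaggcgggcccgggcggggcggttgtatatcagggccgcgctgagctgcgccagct

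CCND1, on the plus strand of chromosome 11 between 69455924 and 69469242 of GRCh37, measured 316 and 302 CPM in siCtrl DMSO and 581 and 557 in siATF4 DMSO. It rose by 0.88 ± 0.08 on the log2 scale (SE), 1.84-fold (limma adjusted p = 3.88e-07). In Sorafenib the gap was wider, with 121 and 127 CPM in siCtrl Srf against 528 and 517 in siATF4 Srf, a rise of 2.07 ± 0.08 or 4.19-fold (adjusted p = 1.02e-10). The siATF4 Srf libraries thus stood above even the untreated control.

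CDKN2C measured 23.4 and 24.1 CPM in siATF4 DMSO and 31.7 and 32.7 in siATF4 Srf, below every siCtrl and siY/T library. It fell by 1.53 on the log2 scale with siATF4 in DMSO (SE 0.05, limma adjusted p = 5.62e-11) and by 0.68 in Sorafenib (adjusted p = 5.94e-08).

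CDKN1B measured 25.5 and 24.5 CPM in siATF4 DMSO and 28.3 and 29.3 in siATF4 Srf, also below every other library. It fell by 0.61 in DMSO (SE 0.05, limma adjusted p = 2.21e-07), which dropped to 0.58, just under the fold limit, with quantile normalization, and by 0.78 in Sorafenib (adjusted p = 1.45e-08).

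CDKN2B measured 2.31 and 2.91 CPM in siATF4 DMSO and 3.81 and 3.87 in siATF4 Srf. It fell by 1.04 in DMSO (SE 0.10, limma adjusted p = 1.22e-06) and by 1.08 in Sorafenib (adjusted p = 6.14e-07). CDKN2B-AS1 differed by -0.13 and -0.29 in the same comparisons, with adjusted p of 0.379 and 0.0524.

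In Sorafenib, siATF4 changed 7 of 8 tested members, 4 higher and 3 lower, while 28.9% of all genes were called, 10.3% higher and 18.7% lower. Both E cyclins joined CCND1 and CDKN1A among the genes that rose. CCNE2 measured 7.80 and 7.02 CPM in siCtrl Srf and 18.8 and 17.4 in siATF4 Srf, a rise of 1.24 ± 0.12 on the log2 scale (SE), 2.36-fold (limma adjusted p = 7.35e-07). CCNE1 measured 4.72 and 4.50 against 8.44 and 7.64 CPM, a rise of 0.74 ± 0.10 (adjusted p = 1.45e-05). The remaining member, CCND3, measured 30.6 and 30.8 against 43.2 and 47.9 CPM, a difference of 0.56 just under the fold limit (adjusted p = 2.52e-05), which reached 0.63 without replicate 1 of siATF4 Srf.

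**Figure D2:**
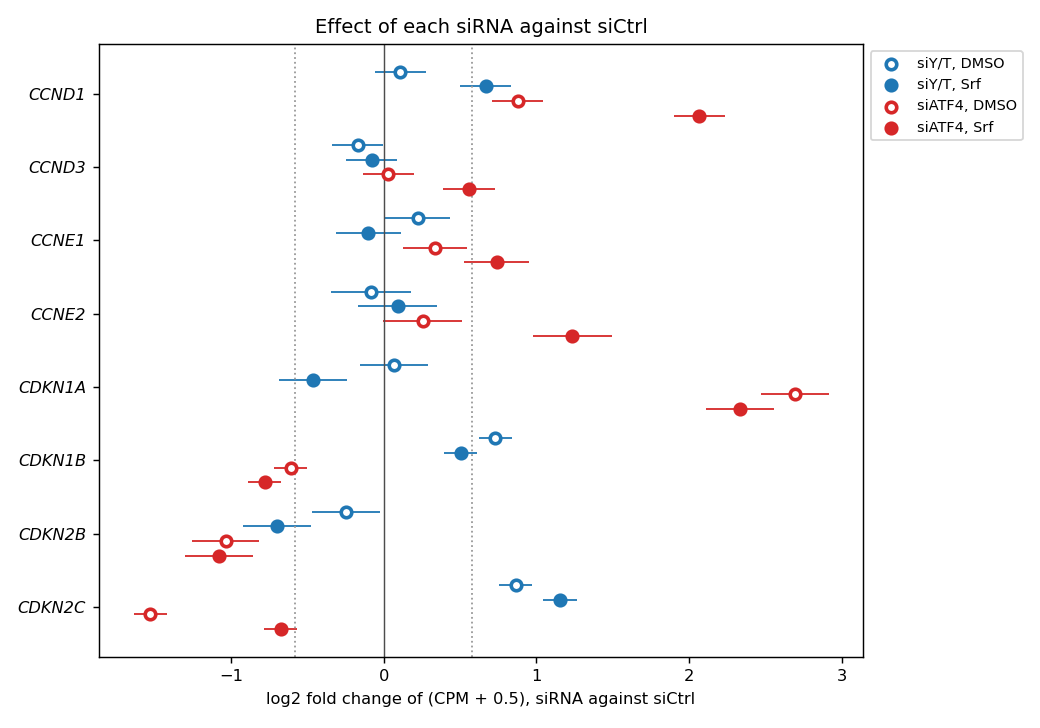
Log2 fold change of (CPM + 0.5) against siCtrl (x axis) for the 8 tested genes (y axis), with 95% confidence intervals from limma; blue is siY/T, red siATF4, open points DMSO, filled points Sorafenib, and dotted lines mark 0.58 in each direction. For CDKN1B and CDKN2C the blue points lie right of 0 and the red points left of it, and the red points of CDKN1A lie at 2.69 and 2.34.

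The effects of the 2 siRNAs were each measured against the same siCtrl libraries, so the groups were also compared with each other directly. In DMSO, siY/T and siATF4 cells differed at 5 of 8 tested members, 3 higher in siY/T cells and 2 lower, while 35.7% of all genes were called, 22.7% higher and 13.0% lower. CDKN2C was 5.26-fold higher in siY/T cells (log2 2.39 ± 0.05 SE, limma adjusted p = 3.29e-13), CDKN1B 2.53-fold higher (1.34 ± 0.05, adjusted p = 4.12e-11) and CDKN2B 1.73-fold higher (0.79 ± 0.10, adjusted p = 9.97e-06), though with quantile normalization the last fell short of the limit at 0.43. CDKN1A and CCND1 were lower in siY/T cells, by 2.62 and 0.77 on the log2 scale, with adjusted p of 6.46e-11 and 7.39e-07.

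In Sorafenib the 2 siRNAs differed at 7 of 8 tested members, 2 higher in siY/T cells and 5 lower, while 38.5% of all genes were called, 23.7% higher and 14.8% lower. All 4 tested cyclins were lower in siY/T than in siATF4 cells, from -0.64 for CCND3 to -1.40 for CCND1, with limma adjusted p of at most 5.34e-06. CDKN1A was lower by 2.80, and CDKN2C and CDKN1B were higher by 1.83 and 1.28. The CCND3 difference was 0.56, under the fold limit, without replicate 2 of siATF4 Srf.

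The third question was how Sorafenib alone acted. In siCtrl cells, Sorafenib lowered 5 of 8 tested members and raised 0, while 17.5% of all genes were called, 12.3% higher and 5.15% lower. The 5 were all 4 tested cyclins and the inhibitor CDKN1A. CCNE2 went from 20.8 and 18.7 to 7.80 and 7.02 CPM, CCND1 from 316 and 302 to 121 and 127, CCND3 from 58.4 and 56.3 to 30.6 and 30.8, and CCNE1 from 8.21 and 9.36 to 4.72 and 4.50. No treated library of these genes overlapped a control library. The same held for CDKN1A and for CDKN1B, CDKN2B and CDKN2C, which were not called, so separation does not set the called genes apart. How many of all genes separated between these groups was not counted.

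The fall was 1.36 for CCNE2, 1.31 for CCND1, 0.89 for CCND3, 0.86 for CCNE1 and 1.05 for CDKN1A on the log2 scale, with SE of 0.08 to 0.12 and limma adjusted p between 2.42e-08 and 6.35e-06. The remaining inhibitors differed by less than the fold limit, CDKN2B by 0.53, CDKN1B by 0.37 and CDKN2C by -0.43, with adjusted p of 0.000582, 2.94e-05 and 9.05e-06. Without replicate 1 of siCtrl DMSO, CDKN2B passed it at 0.63.

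In siY/T cells, Sorafenib lowered the 4 tested cyclins and CDKN1A, 5 of 8 tested members, and raised 0, while 9.97% of all genes were called, 5.83% higher and 4.14% lower. CDKN1A went from 18.4 and 14.2 to 5.37 and 4.79 CPM, a fall of 1.58 (SE 0.10, limma adjusted p = 1.03e-07). CCNE1 went from 10.6 and 10.1 to 4.001 and 4.54 CPM, a fall of 1.18 (adjusted p = 7.97e-07). CCNE2 fell by 1.18, CCND3 by 0.80 and CCND1 by 0.75.

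In siATF4 cells, Sorafenib lowered 1 of 8 tested members, CDKN1A, and raised 0, while 8.63% of all genes were called, 5.68% higher and 2.95% lower. It went from 107 and 97.6 to 37.2 and 39.6 CPM, a fall of 1.40 (SE 0.10, limma adjusted p = 3.44e-07). The cyclins were lower by less than the fold limit, from -0.12 for CCND1 (adjusted p = 0.203) to -0.46 for CCNE1 (adjusted p = 0.00186). Without replicate 2 of siATF4 DMSO, CDKN2B also passed, at 0.63 against 0.49 with all libraries.

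**Figure D3:**
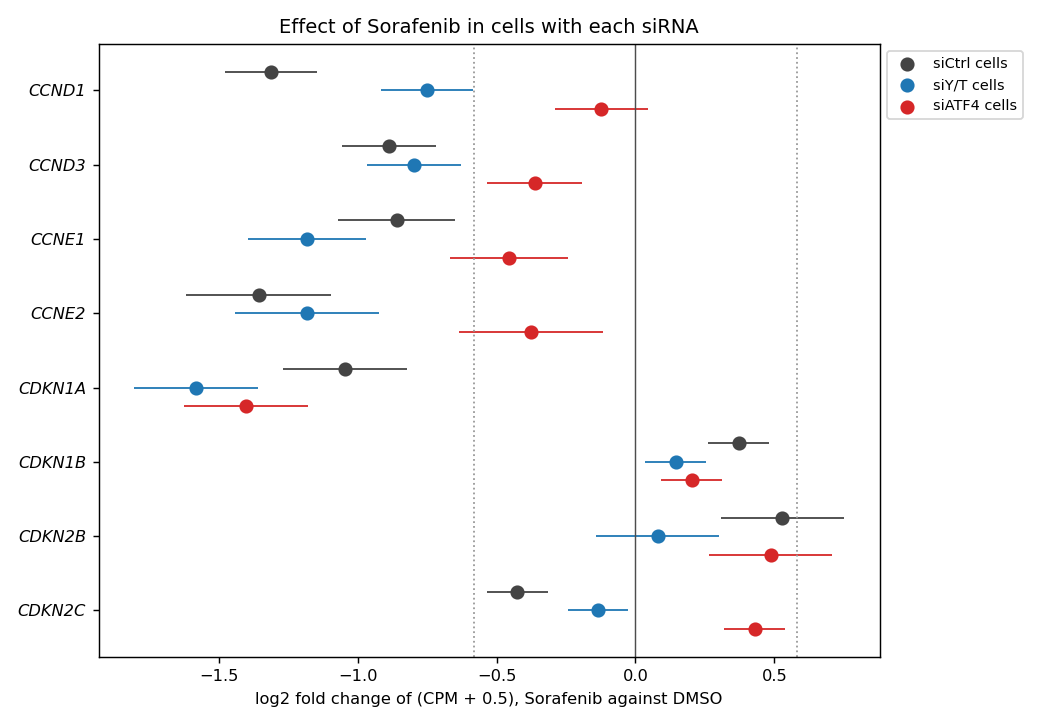
Log2 fold change of (CPM + 0.5) of Sorafenib against DMSO (x axis) for the 8 tested genes (y axis) in siCtrl (grey), siY/T (blue) and siATF4 (red) cells, with 95% confidence intervals from limma and dotted lines at 0.58 in each direction. The red points of the 4 cyclins lie nearer to 0 than the grey ones, and CDKN1A lies between -1.05 and -1.58 in all 3.

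Whether the Sorafenib effect differed between siRNAs was tested as the difference between effects, called at an adjusted p under 0.05. With siATF4, the difference was called for 5 of 8 tested members, all positive, while 41.1% of all genes were called, 19.3% positive and 21.8% negative. It was 1.19 ± 0.11 on the log2 scale (SE) for CCND1 (limma adjusted p = 5.65e-06), 0.98 ± 0.17 for CCNE2 (adjusted p = 0.000606), 0.53 ± 0.11 for CCND3 (adjusted p = 0.00230), 0.40 ± 0.14 for CCNE1 (adjusted p = 0.0333) and 0.85 ± 0.07 for CDKN2C (adjusted p = 2.99e-06). All 4 tested cyclins therefore fell less under Sorafenib when ATF4 was depleted. CDKN2C was lower with Sorafenib in siCtrl cells, at -0.43, and higher in siATF4 cells, at 0.43, and both changes were under the fold limit and not called. For CDKN1A the difference was -0.36, with a 95% interval of -0.67 to -0.04 and an adjusted p of 0.0670. That of CDKN1A was called without either library of siY/T DMSO, with a pseudocount of 1 and with only the groups compared. The CCNE1 difference, between 0.30 and 0.50 when a library was left out, lost its call without replicate 1 of siCtrl Srf or siATF4 Srf or replicate 2 of siCtrl DMSO, siATF4 DMSO or siCtrl Srf, and with no filter on low values.

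With siY/T, the difference was called for 5 of 8 tested members, 2 positive and 3 negative, while 22.0% of all genes were called, 7.81% positive and 14.2% negative. CCND1 fell less under Sorafenib in siY/T cells than in siCtrl cells, by 0.56 ± 0.11 (SE, limma adjusted p = 0.00377), and CDKN2C differed by 0.29 ± 0.07 (adjusted p = 0.0123). CDKN1A at -0.54, CDKN2B at -0.45 and CDKN1B at -0.23 had adjusted p of 0.0203, 0.0424 and 0.0374. These are the least steady calls: leaving out a single library left between 1 and 5 of them, and 1 without replicate 2 of siCtrl DMSO. The E cyclins and CCND3 were not called, with 95% intervals of -0.62 to -0.02 for CCNE1, -0.19 to 0.54 for CCNE2 and -0.15 to 0.33 for CCND3.

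CDKN1C, which encodes p57, was too low for the main test and is given from a fit with no filter on low values. Its reads were 17 and 14 in siCtrl DMSO, 45 and 43 in siCtrl Srf, 26 and 15 in siY/T DMSO, 32 and 41 in siY/T Srf, 10 and 8 in siATF4 DMSO and 13 and 6 in siATF4 Srf, or 0.128 to 0.958 CPM. Both siATF4 groups lay below all others. In that fit it was higher by 0.77 with Sorafenib in siCtrl cells (SE 0.13, limma adjusted p = 0.00405) and differed by -1.02 on the log2 scale in siATF4 Srf from siCtrl Srf cells (adjusted p = 0.000748).

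The make-up of each class shifted with these changes. Per length, CCND1 made up 72.1 and 72.0% of D cyclin mRNA in siCtrl DMSO and 65.4 and 66.3% in siCtrl Srf. It made up 75.3 and 76.2% in siY/T DMSO and 77.6 and 75.3% in siY/T Srf. The share was 82.1 and 82.4% in siATF4 DMSO and 85.4 and 83.8% in siATF4 Srf. The shares of inhibitors are over the chosen inhibitors only and leave out CDKN2A and CDKN2D. CDKN2A stood at 35.1 CPM per kb in siCtrl DMSO, 47.5 in siY/T DMSO and 40.5 in siATF4 DMSO. Of the chosen inhibitors, CDKN2C held 73.8 ± 0.610% in siCtrl DMSO, 78.1 ± 0.247% in siY/T DMSO and 28.7 ± 1.57% in siATF4 DMSO (SD, n = 2). CDKN1A held 7.66 ± 0.173%, 4.69 ± 0.571% and 57.9 ± 1.78% in the same groups. In siATF4 Srf cells CDKN2C held 50.9 ± 0.276% and CDKN1A 28.5 ± 0.436% per length, but without length scaling CDKN1A led with 37.1% against 31.1%. CDKN2A, outside the sum, stood there at 40.6 CPM per kb, above CDKN2C at 32.4 and CDKN1A at 18.1. Without length scaling CDKN2A was at 39.7 CPM, CDKN1A at 38.4 and CDKN2C at 32.2. In siATF4 DMSO cells CDKN1A led on both scales, and in siCtrl and siY/T cells CDKN2C did, though without length scaling it held only 43.7% against 42.1% for CDKN1B in siCtrl Srf cells.

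Summed per-length levels of the chosen cyclins over those of the chosen inhibitors are a description with no test. The inhibitor sum, 94.9 CPM per kb in siCtrl DMSO, left out CDKN2A and CDKN2D, at 35.1 and 4.58 there. The size of the ratio, and whether it lies above 1, therefore depends on the genes chosen. It was 1.19 ± 0.0420 in siCtrl DMSO and 0.630 ± 0.00953 in siCtrl Srf. The ratio was 0.710 ± 0.0214 in siY/T DMSO and 0.443 ± 0.0517 in siY/T Srf. It was 2.13 ± 0.000394 in siATF4 DMSO and 2.47 ± 0.0828 in siATF4 Srf. Sorafenib libraries lay below DMSO libraries in siCtrl and siY/T cells and above them in siATF4 cells. In siATF4 cells both sums were lower with Sorafenib. The cyclin sum went from 177.8 to 156.7 and the inhibitor sum from 83.39 to 63.55 CPM per kb. CDKN2A, outside the inhibitor sum, stood at 40.5 and 40.6 CPM per kb in these groups. The size of the rise in siATF4 cells therefore also depends on the genes chosen. The sums weigh genes by abundance, so CCND1 set most of the upper part, and CDKN2C most of the lower part except in siATF4 DMSO cells, where CDKN1A was the larger.

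The wider G1 to S programme was read from gene lists, with no test of a list. Of 16 S phase genes under E2F control, Sorafenib lowered 14 in siCtrl cells, 15 in siY/T cells and 1 in siATF4 cells, while it lowered 5.15%, 4.14% and 2.95% of all genes. The median log2 fold changes were -0.92, -0.86 and 0.05 over the list and 0.05, 0.04 and 0.03 over all genes. The leading ones in siCtrl cells were CDC6, which loads the replicative helicase (-1.47), RRM2, a subunit of ribonucleotide reductase (-1.28), CDC45, a helicase subunit (-1.16), and PCNA, the polymerase clamp (-1.05). The exception in siATF4 cells was RRM2 at -0.73. With siATF4 in Sorafenib, 11 of the 16 were higher and 0 lower, led by CDC45 at 1.67, while 10.3% of all genes were higher. The median was 0.79 over the list and -0.01 over all genes.

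Of 25 other genes of the G1 to S machinery, Sorafenib lowered 9 in siCtrl cells, 7 in siY/T cells and 0 in siATF4 cells, and raised 1, RBL2 at 0.63, in the last, where 5.68% of all genes were higher. Of all genes it lowered 5.15%, 4.14% and 2.95%, and the list medians were -0.37, -0.27 and -0.02 against 0.05, 0.04 and 0.03 over all genes. The leading ones in siCtrl cells were CDC25A, the phosphatase that activates CDK2 (-1.57), and the E2F family members E2F8 (-1.27), E2F2 (-1.16) and E2F7 (-1.04). In siATF4 Srf against siCtrl Srf cells 10 rose, with E2F1 at 1.20, E2F2 at 1.08 and E2F7 at 1.07, and 1 fell, TFDP2, an E2F partner, at -0.97, while 10.3% of all genes were higher and 18.7% lower. The list median was 0.40 there and that of all genes -0.01. With siY/T in DMSO, 1 of the 25 was higher, TFDP2 at 1.54, and 1 lower, SKP2, part of the ligase that degrades p27, at -0.66, while 11.0% of all genes were higher and 3.61% lower, so that few list genes were called in either direction. In siATF4 DMSO cells 1 was higher, MYC at 0.96, and 4 were lower, CDC25A, CDKN2D, RBL2 and TFDP2, near the shares of all genes, 8.57% higher and 14.1% lower.

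**Figure D4:**
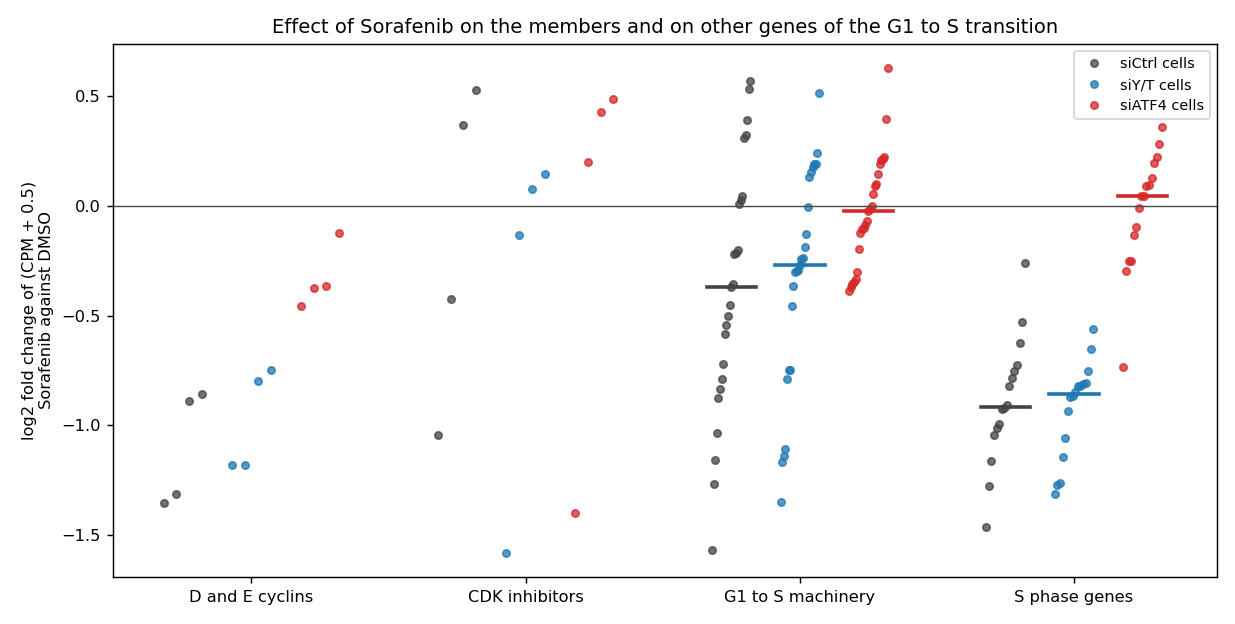
Log2 fold change of (CPM + 0.5) of Sorafenib against DMSO (y axis) for single genes of 4 groups (x axis) in siCtrl (grey), siY/T (blue) and siATF4 (red) cells; a point is a gene and a bar the median of a list of more than 4 genes. Sorafenib medians of the S phase genes were -0.92, -0.86 and 0.05 in siCtrl, siY/T and siATF4 cells, and those of the G1 to S machinery were -0.37, -0.27 and -0.02.

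As a description over the 12 libraries, the genes whose log2 levels followed 7 of the 8 tested members most closely among the 11152 genes that averaged 5 CPM or more were DNAJB11 for CCND1 (Pearson r = 0.992), PTBP1 for CCND3 (0.990), PHF19 for CCNE1 (0.973), CNDP2 for CDKN1A (0.993), GGT1 for CDKN1B (0.998), GSE1 for CDKN2B (0.991) and TGFBR3 for CDKN2C (0.994). E2F7 was among the 3 closest for both E cyclins, at 0.966 and 0.977. Between members, CDKN1B and CDKN2C went together at 0.935, and CDKN1A went against CDKN1B at -0.869. The points share 6 groups, so these values describe group differences.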

How the data were processed

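RNA of the 12 libraries was selected for poly(A), and the labels give a stranded kit. The authors mapped reads with STAR to hg19, kept unique hits, counted them over RefSeq mRNA exons and deposited CPM values, reads per 1000000 reads on genes. The strand setting and any filter are not given in the sources used here. All 12 columns were mapped by title. Each deposited CPM was a whole multiple of 1 read within 0.001 read (100% of values), so counts could be recovered for edgeR 4.0.16 and DESeq2 1.42.0 as alternatives. RefSeq gave names to 26111 of the 26258 Entrez identifiers.

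The 13515 genes that reached 1 CPM in 2 or more of 12 libraries were fitted with limma 3.58.1 in R 4.3.3 on log2(CPM + 0.5), 1 coefficient a group, all 12 libraries, with a variance trend. The script was tested on simulated data. Alternatives covered the pseudocount, filter, scaling, block, samples, tool, threshold and each left-out library. Per-length levels used the GENCODE canonical transcript. Named genes were the members, the siRNA targets, up to 4 called genes a list with the largest change, and the 3 genes most like each member. Some values that the rule covers are not reported here. The members and lists were chosen with earlier results of these data known.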

Additional observations from a re-analysis of the deposited data

Results flagged for a closer look

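The siRNA effects below differed between the Sorafenib and DMSO arms by the limma test of the difference itself, at an adjusted p under 0.05. For siATF4 the differences on the log2 scale were 1.19 for CCND1, 0.98 for CCNE2, 0.85 for CDKN2C, 0.53 for CCND3 and 0.40 for CCNE1. For siY/T they were 0.56 for CCND1, 0.29 for CDKN2C, -0.23 for CDKN1B, -0.45 for CDKN2B and -0.54 for CDKN1A.

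The siATF4 differences of CCND1, CCNE2, CDKN2C and CCND3 kept their call in all 22 other settings run. Those of siY/T were less steady. CDKN2B lost its call in 13 of 22 settings, CDKN1B in 10, CDKN1A in 6, and CCND1 and CDKN2C in 1 each, the first with no filter on low values and the second without replicate 2 of siCtrl DMSO. CDKN1B lost it without either library of siCtrl DMSO, siCtrl Srf, siY/T Srf or siATF4 DMSO. CDKN1A lost it without either library of siCtrl DMSO or replicate 2 of siCtrl Srf or siY/T Srf.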

How the results depend on the processing

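Of 2080 recomputed values of single genes, 2013 kept their call, 41 lost it (37 of them differences between effects), 26 gained it (18 of these with an adjusted P under 0.05 and no minimum change) and 0 reversed, while 12 uncalled values changed sign. With that rule of no minimum change, the members called rose from 3 to 5 for siY/T in Sorafenib, from 5 to 8 for Sorafenib in siCtrl cells and from 1 to 7 for Sorafenib in siATF4 cells. The 5 members whose siY/T effects differed between arms became 2 with no filter on low values, 3 with only the groups compared and 3 with DESeq2 on whole reads, and between 1 and 5 when a library was left out, with 1 without replicate 2 of siCtrl DMSO. Sorafenib in siATF4 cells called 1 to 2 members when a library was left out. The cause was not tested. The medians of all genes stayed within 0.07 of 0 under every scaling.

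Without length scaling, CCND1 made up 84.35% of D cyclins in siCtrl DMSO, 80.15% in siCtrl Srf, 86.75% in siY/T DMSO, 87.17% in siY/T Srf, 90.65% in siATF4 DMSO and 91.98% in siATF4 Srf, and the chosen cyclins over the chosen inhibitors were 3.048, 1.412, 1.942, 1.214, 4.306 and 5.749 in the same order, by construction of the scale.

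Of 15 pairs of groups, 4 had same-numbered deviations correlated above 0.1 (range -0.282 to 0.193) and 7 above 0. Pairs within an arm were all above 0, at 0.036 to 0.193 in DMSO and 0.1 to 0.164 in Sorafenib. Pairs across arms lay between -0.282 and 0.005. Whether same-numbered libraries share something within an arm was not tested, and a single block over both arms could not take it up. With the replicate number as a block, the members called stayed at 2, 5, 3 and 7 for siY/T in DMSO, siATF4 in DMSO, siY/T in Sorafenib and siATF4 in Sorafenib, at 5, 5 and 1 for Sorafenib in siCtrl, siY/T and siATF4 cells, at 5 and 7 for siY/T against siATF4 in DMSO and Sorafenib, and at 5 for the differences between siATF4 effects, and went from 5 to 4 for siY/T. Depth limits CCND2 and CDKN1C, which lie under 1 CPM.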
